A study of Mus musculus with 10 samples.

Results

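The change of H3K4me2 between postnatal day 7 (PN7) and postnatal day 15 (PN15) was examined around the transcription start site (TSS) of every gene symbol in the deposited occupancy table, 20045 of 20045 symbols. A symbol with several entries was taken at the entry whose 8 values had the largest sum, so the choice of members did not use the change itself. ChIP-Seq for H3K4me2 and for H3K27me3 was done on mouse retina of 4 stages, namely E17.5 and postnatal days PN1, PN7 and PN15. Each mark has 1 library per stage, from chromatin of at least 20 retinas. The groups compared here are the H3K4me2 library at PN7 and the H3K4me2 library at PN15, neither with any treatment; the H3K27me3 libraries and the earlier H3K4me2 libraries are given beside them. The labels name the strain Pde6b (rd1/rd1), a line whose rods degenerate, for all 10 libraries of the series, whereas the methods of the study describe C57BL/6j animals for the developmental series, so the genotype rests on the methods. The antibody labels of each mark carry catalogue numbers of both antibodies, first the one that the methods give for the other mark and then its own, and the deposited H3K27me3 column at PN7 has a letter b after the name of the mark, with no explanation in the sources used here. The marks were therefore taken from the sample titles, in which PN7 has only 1 library of each. At PN7 the 39 Hox genes, known targets of Polycomb, had a median of 654 in the H3K27me3 column and 6 in the H3K4me2 column, and the 83 ribosomal protein genes had 6 and 31. The labels write the embryonic stage as E17. With 1 library a side no difference has a replicate to be set against, no p-value is given, and retinas of several animals were pooled within each library.

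Methylation of histone H3 at lysine 4 is placed around the start sites of genes that are active or held ready for activity, and the dimethyl form flanks the TSS. H3K27me3 is the mark of Polycomb repression. The interval from PN7 to PN15 spans the end of cell division in the mouse retina, the growth of rod outer segments and eye opening, and rods make up most of the nuclei of the mature tissue. In a whole retina a change in the number of cells that carry a mark and a change in the mark within each cell cannot be told apart.

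Normalized occupancy is the number of reads within 2.5 kb of the TSS, scaled by the authors to the library's mapped reads and given as a whole number. Windows have the same length for every gene, so levels may be set side by side between genes. Over all symbols the median occupancy was 24 at PN7 and 42 at PN15. With a pseudocount of 1 the log2 change had a median of 1, and it was subtracted from every gene. A centred log2 change of 0 therefore means a 2-fold higher deposited value at PN15, and a centred change of -1 means equal deposited values. Against this centre 3192 symbols, 15.9% of all, were at least 2-fold higher at PN15 and 3433, 17.1%, were at least 2-fold lower. Many of these calls lay in windows with almost no mark. A symbol listed at 0 at PN7, as 4022 were, is called higher from a value of 3 upward. The 1044 olfactory receptor symbols, which the retina does not use, had a median of 0 at PN7 and 2 at PN15, and 415 of them were called higher. The globin genes Hba-a1 and Hbb-b1 went from 0 to 4 and were called higher too. Shares over all genes are therefore also given for marked symbols, those with a mean H3K4me2 of at least 10 over the 4 stages. A symbol that is high at PN15 alone can pass this limit through that value. Counts within gene lists are over all measured members, to be read beside the shares of all symbols, and those over marked members are added where they differ. Of 13692 marked symbols, 785 (5.73%) were higher and 2511 (18.3%) were lower. Before centring, 2337 of the 2511 had a lower value at PN15 and 281 were at least 2-fold lower. The proportion of calls that were higher depended on the scaling: after quantile normalization of both libraries to each other the same marked symbols gave 1256 higher and 1621 lower. With a pseudocount of 10 they gave 1033 higher and 661 lower, so which direction held more calls also depended on the pseudocount.

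**Figure D1:**
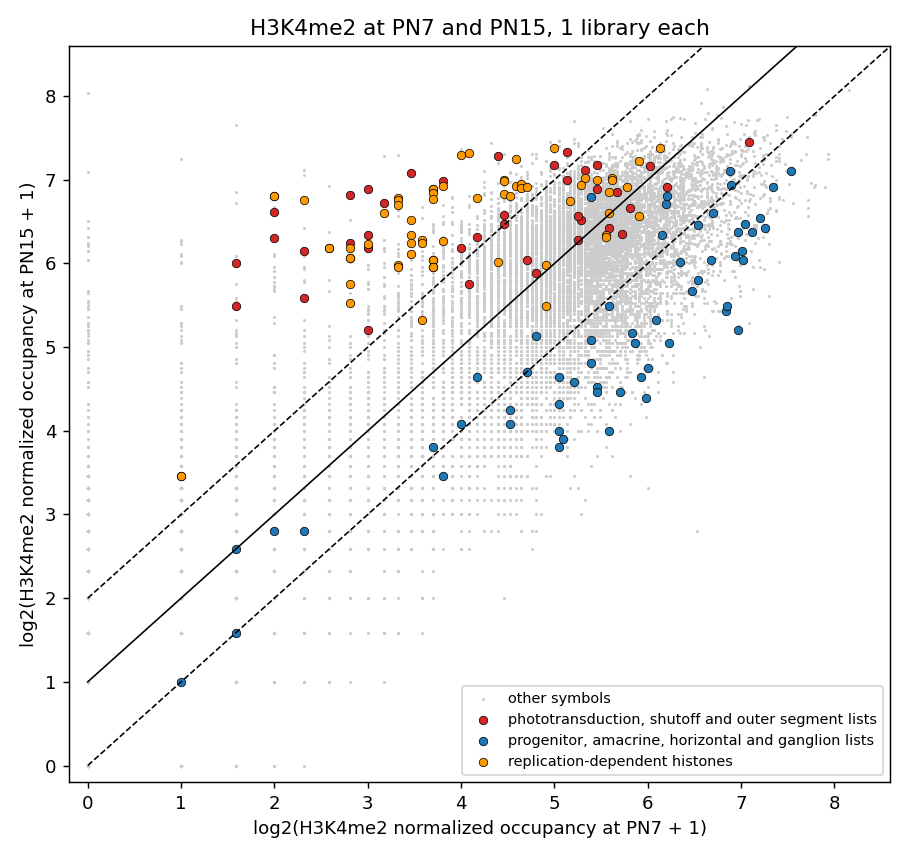
Each point is 1 symbol, with log2(H3K4me2 normalized occupancy + 1) at PN7 on the x axis and at PN15 on the y axis, 1 library each. The solid line marks a centred change of 0 and the broken lines centred changes of 1 and -1; symbols of the phototransduction, shutoff and outer segment lists (red) lie above the solid line or less than 1 below it, those of the progenitor, amacrine, horizontal and ganglion lists (blue) mostly on or under the lower broken line, and the replication-dependent histone genes (orange) mostly above the upper one.

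Windows with repeated sequence stood apart. For each of 19474 symbols located in the mm9 annotation, words of 32 bases were taken every 50 bases across the window and looked up in the whole genome. Among marked symbols 103 had over 50% of their words at more than 1 place, and 94 of these were called higher. In the order of the stages their H3K4me2 had medians of 39, 28, 0 and 38. Their H3K27me3 followed the same course, with medians of 12, 11, 0 and 12. Both marks were thus at or near 0 in the PN7 libraries in windows where each other stage had a value, and 43 of the 103 symbols were listed at 0 at PN7 for both marks. The methods state that reads with several positions were removed, and no difference in mapping between stages is described; the part of mapping in these values was not tested. Of the 15 marked symbols with the highest centred change and an occupancy of at least 40 at PN15, 14 were of this kind or could not be located. They include Srp54b and Srp54c, copies of a signal recognition particle gene, with H3K4me2 of 0 and 1 at PN7 against 135 and 151 at PN15, and H3K27me3 of 0 and 1 at PN7. Gon4l and Tcte3 were both at 0 at PN7 and at 70 at PN15. BC016201, with 6, 6, 0 and 74 in the order of the stages, was the only one of these 14 that was also under 10 at E17.5 and PN1. The shares of marked symbols that follow leave out those with over 25% of words repeated or with no location, a limit set after the values were seen. This left 13120 marked symbols, of which 589 (4.49%) were higher and 2469 (18.8%) were lower.

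**Figure D2:**
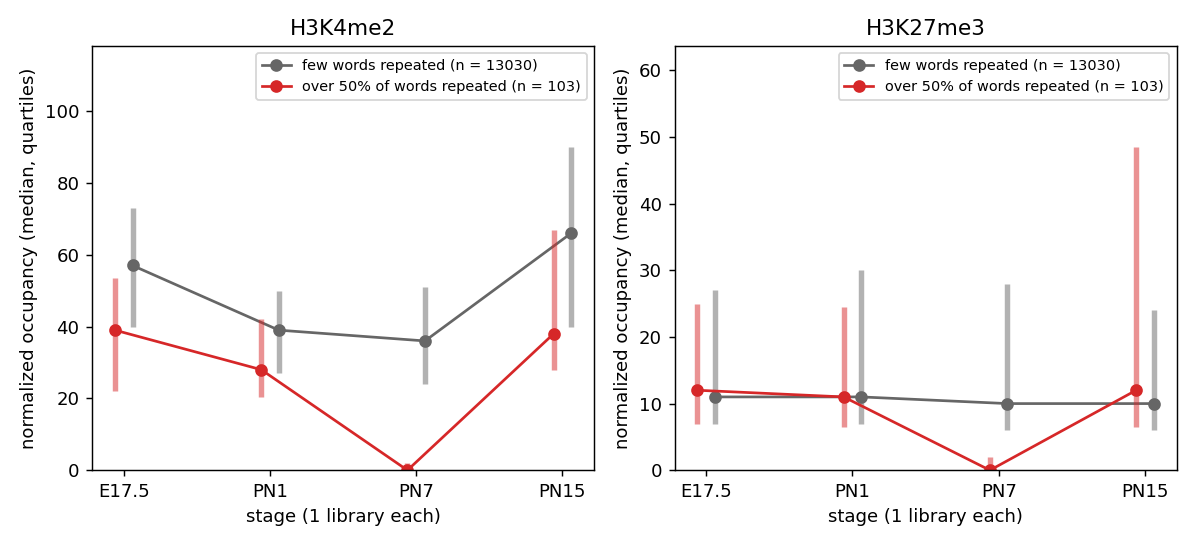
Median normalized occupancy (points, with quartiles as bars) at the 4 stages, 1 library each, for H3K4me2 (left) and H3K27me3 (right), in marked symbols with few repeated words and in the 103 with over 50% repeated. The red line falls to 0 at PN7 in both panels and is at 38 and 12 at PN15, while the grey medians at PN7 are 36 and 10.

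The replication-dependent histone genes, which supply histones during S phase, were also low in H3K4me2 at PN7. Of 64, 46 were called higher and none lower (44 of the 62 marked), with a median centred change of 1.49. Median H3K4me2 values over the 4 stages were 82.5, 62, 12.5 and 104.5, so the difference lay in the PN7 value. Their H3K27me3, with medians of 5, 7, 5 and 8.5, did not drop to 0 at PN7 as in the repeated windows. Only 3 of the 63 located had over 50% of their window repeated, but copies of these genes are alike close to the start: Hist1h2bp had 13% of its window and 55% of the 500 bases on either side of its start repeated, with H3K4me2 of 52, 42, 5 and 72. Against PN1 the median centred change of the list was 0.20. Across marked symbols with few repeats in the window but over 50% within 500 bases of the start, 11 of 14 were called higher. The part of repeated sequence in the histone values was not tested.

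Genes of rod vision were higher at PN15 in unique sequence. Phototransduction runs through transducin and the cGMP phosphodiesterase to the cGMP-gated channel. Of 9 measured members of this list 7 were called higher and none lower, beside 15.9% of all symbols called higher, and the median centred change was 2.18. Gnat1 (mm9, chr9:107576808-107581923), the rod transducin alpha subunit, had H3K4me2 of 11, 8, 8 and 105 from the earliest to the latest stage, a centred change of 2.56. Pde6a, the alpha subunit of the phosphodiesterase, had 6, 6, 7 and 118, a centred change of 2.89. Cnga1, the channel subunit, had 6, 6, 13 and 126. The value at PN15 stood above all 3 earlier stages by several fold in each of these genes, while the earlier stages lay close together. Gngt1, the transducin gamma subunit, had 9, 12, 3 and 78, and Slc24a1, the rod sodium-calcium-potassium exchanger, had 14, 9, 3 and 111. Pde6b had 10, 20, 21 and 95 and Pde6g had 10, 14, 17 and 79, with centred changes of 1.13 and 1.15. Of the 9 members, 5 averaged under 10 over the earlier stages and were marked only through the PN15 value, so no share of marked symbols is set beside this list. The same held for 4 of the 12 shutoff genes and 5 of the 20 outer segment genes described next. Gnb1, the transducin beta subunit that many tissues share, was not called and had 80, 51, 55 and 100, a centred change of -0.15.

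Recovery of the light response depends on arrestin, a receptor kinase, the guanylate cyclases with their activating proteins and the RGS9 complex. Of 12 measured members, 6 were called higher and none lower, with a median centred change of 0.92. Gucy2f, a retinal guanylate cyclase on the X chromosome, had 8, 8, 2 and 63, a centred change of 3.42. Rcvrn, which encodes recoverin, had 1, 9, 10 and 134. Pdc, phosducin, had 13, 14, 5 and 72. The cyclase activators Guca1a and Guca1b had 4 and 7 at PN7 against 47 and 72 at PN15. Ppef2 was called with 31 at PN7 and 144 at PN15. The other 6 members lay within 1 of the centre. Sag, rod arrestin, had 9, 15, 16 and 53, a centred change of 0.67, and Grk1, the receptor kinase of rods, had 11, 9, 25 and 65, a centred change of 0.34. Rgs9bp, which anchors RGS9 to the disc membrane, already had 135 at PN7 and reached 174, a centred change of -0.64. The annotated start of Ankrd27, with 134 and 164, lies 665 bases from that of Rgs9bp, so much of that signal is shared.

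Proteins of the outer segment and photoreceptor structure formed the longest of these lists, with 11 of 20 called higher, none lower and a median centred change of 1.10. Fam161a, a ciliary gene, went from 3 at PN7 to 97 at PN15, a centred change of 3.61. Impg1 and Impg2, proteoglycans of the matrix between photoreceptors, went from 6 to 112 and from 2 to 44; 48% of the words in the Impg2 window were repeated. Rp1, of the photoreceptor axoneme, went from 4 to 70, Rpgrip1 from 6 to 75 and Fscn2 from 7 to 80. Aipl1, the chaperone of the phosphodiesterase, went from 20 to 155. At the other end Rom1 had 73 and 120, with a centred change of -0.29 in a window shared with Eml3, 338 bases away, and Tulp1 had 52 and 81, with a centred change of -0.37.

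Over these 3 lists together, 41 symbols, the deposited value was higher at PN15 than at PN7 in all 41 and 40 reached 40 or more; of all symbols 12.7%, and of marked symbols 17.1%, had a lower deposited value at PN15. They differed in where they stood at PN7. The 20 symbols under 20 at PN7 had medians of 10.5, 9, 6.5 and 76.5 over the 4 stages, and 19 of them were called higher. The 21 symbols at 20 or more at PN7 had medians of 23, 26, 38 and 115, and 5 were called higher. In Grk1, Kcnv2 and Tulp1, and in Nr2e3 of the photoreceptor regulators, the value at PN7 was already above both earlier stages. Relative to PN1 the median centred changes of the low and the high symbols were 2.5 and 1.69. The division by the PN7 value uses the same library as the change and is given as a description.

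**Figure D3:**
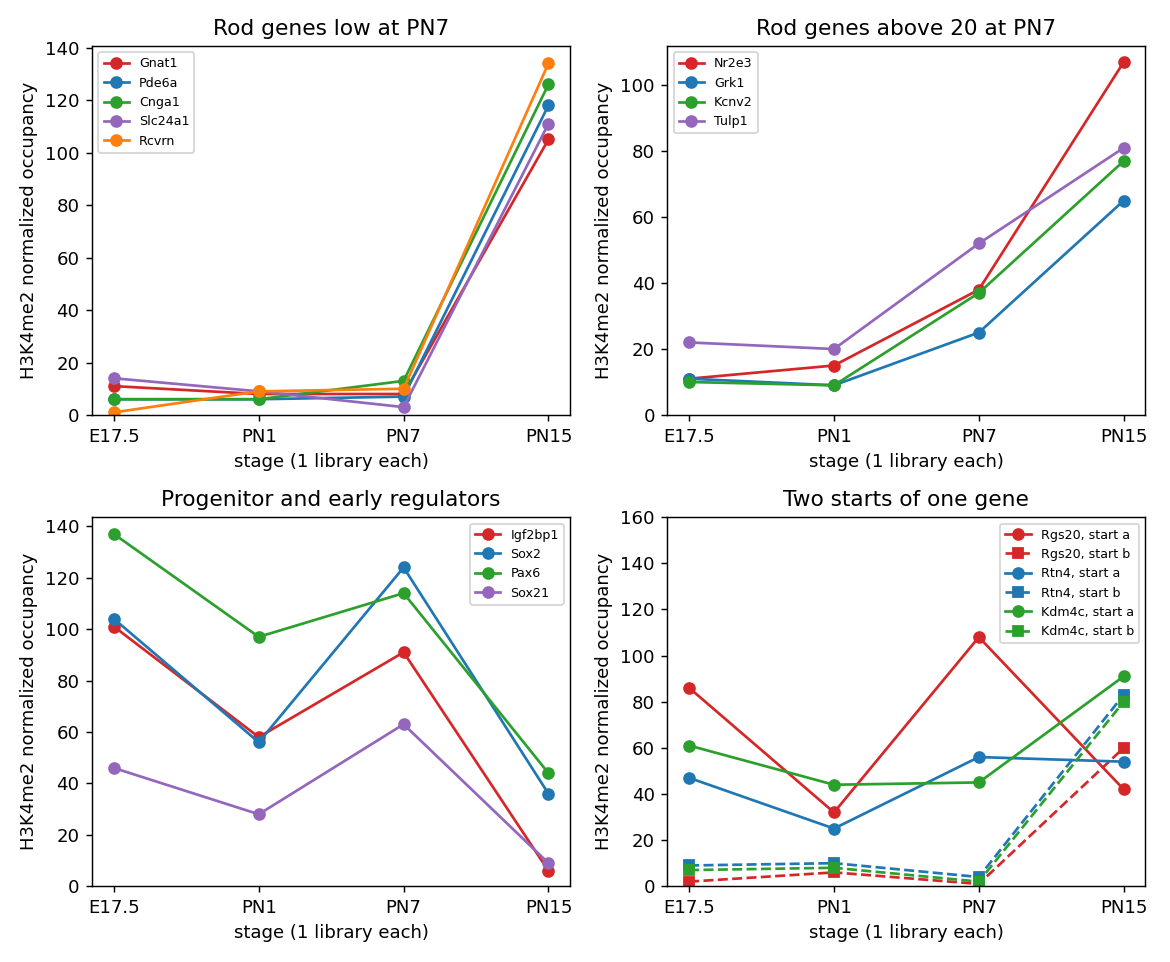
H3K4me2 normalized occupancy (y axis) at 4 stages (x axis), 1 library each. The plotted rod genes low at PN7 (Gnat1, Pde6a, Cnga1, Slc24a1 and Rcvrn) stay at 14 or less until PN7 and lie between 105 and 134 at PN15. They are examples: all 20 rod-list symbols under 20 at PN7 ran from 36 to 134 at PN15, with a median of 76.5. Nr2e3, Grk1, Kcnv2 and Tulp1, above 20 at PN7, climb from PN1 to PN7 and from PN7 to PN15. Igf2bp1, Sox2, Pax6 and Sox21 in the lower left panel fall to between 6 and 44 at PN15. In the lower right panel start b of Rgs20, Rtn4 and Kdm4c is at 10 or less before PN15 and at 60 to 83 at PN15.

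Promoter sequence was compared because the homeobox factors CRX and OTX2, which bind a TAATCC core, and the rod factor NRL act on rod promoters. RefSeq promoters of the GRCm38.p6 build, 250 bases before to 50 after the start, matched 13965 symbols by name. TAATCC on either strand was present in 6.23% of them, in 5.24% of the 9366 marked symbols with few repeats, in 10.6% of the 398 called higher and in 3.94% of the 1728 called lower. Among the 92 symbols with a centred change of at least 1.5 it was present in 19, or 20.7%. Within 100 bases before the start the corresponding shares were 1.93%, 1.49%, 4.52%, 1.22% and 9.78%. It was in 2 of 5 matched promoters of the phototransduction list, 6 of 9 of the shutoff list, 3 of 13 of the photoreceptor regulators and 3 of 15 of the outer segment list. Of the 6 shutoff genes, Gnb5, Gucy2e and Sag were not called higher. The 7 segments that follow are the 120 bases before the start of the called-higher genes of these 4 lists with a match in that stretch, shown 5′ to 3′ on the strand of the gene, with TAATCC or its reverse complement in capitals.
Gngt1, chr6:3993888-3994007, plus strand: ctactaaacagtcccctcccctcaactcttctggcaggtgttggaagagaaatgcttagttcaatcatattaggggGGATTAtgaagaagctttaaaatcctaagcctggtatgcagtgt
Guca1a, chr17:47400607-47400726, minus strand: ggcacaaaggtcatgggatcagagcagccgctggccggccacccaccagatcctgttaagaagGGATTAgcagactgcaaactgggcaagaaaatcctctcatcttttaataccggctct
Gucy2f, chrX:142196937-142197056, minus strand: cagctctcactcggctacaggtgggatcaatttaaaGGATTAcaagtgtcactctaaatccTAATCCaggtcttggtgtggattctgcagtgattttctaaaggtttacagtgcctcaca
Crx, chr7:15879956-15880075, minus strand: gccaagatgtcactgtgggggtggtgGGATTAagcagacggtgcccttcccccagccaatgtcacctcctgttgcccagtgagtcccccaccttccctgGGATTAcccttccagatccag
Abca4, chr3:122044340-122044459, plus strand: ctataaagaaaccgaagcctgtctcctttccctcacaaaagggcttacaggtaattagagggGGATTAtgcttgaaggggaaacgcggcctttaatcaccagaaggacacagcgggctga
Aipl1, chr11:72037510-72037629, minus strand: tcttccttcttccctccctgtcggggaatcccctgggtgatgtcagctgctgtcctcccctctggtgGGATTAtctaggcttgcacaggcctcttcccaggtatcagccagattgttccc
Rpgrip1, chr14:52110783-52110902, plus strand: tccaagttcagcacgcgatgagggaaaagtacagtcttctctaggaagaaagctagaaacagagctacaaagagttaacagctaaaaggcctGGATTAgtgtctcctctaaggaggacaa
Crx and Gucy2f held 2 matches each in the stretch shown and the other 5 held 1, all within 100 bases of the start. Of the 22 called-higher genes of these lists with a matched promoter, 10 held a match somewhere in the 300 bases and 12 held none, namely Slc24a1, Pdc, Pde6b, Nrl, Otx2, Fam161a, Fscn2, Impg1, Impg2, Mak, Prph2 and Rpgr. TGCTGA, part of the NRL site, was in 17.3% of all matched promoters, in 14.3% of marked promoters, in 17.8% of those called higher, in 19 (20.7%) of the 92 and in 4 of 9 shutoff promoters. The promoters of the 92 most increased symbols were also poor in CpG: the median ratio of observed to expected CpG was 0.39. It was 0.62 for all matched symbols, 0.77 for marked symbols and 0.68 for symbols called lower. The GC box GGGCGG was in 25% of the 92, in 67.1% of marked and in 49.7% of all matched promoters, and TATAAA in 10.9%, 6.56% and 12.9%. The 92 and the called-higher symbols are marked symbols, which can reach that limit through the PN15 value alone. The part of that limit in these shares was not tested. A match of 6 letters is a description of the sequence and not a measured site, and the low CpG content and the matches were not separated.

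The regulators of photoreceptors were less uniform. Of 13 measured, 4 were called higher and 1 lower, with a median centred change of 0.46. Crx had 20, 24, 21 and 158, a centred change of 1.85. Samd7 had 10, 13, 8 and 72, a centred change of 2.02. Nrl had 35, 26, 24 and 116, and Otx2 had 73, 58, 33 and 140, with centred changes of 1.23 and 1.05. Nr2e3, which represses cone genes in rods, had 11, 15, 38 and 107 and Mef2d had 90, 62, 98 and 271, the highest PN15 value of the list; their centred changes of 0.47 and 0.46 were under the limit. Neurod1, Esrrb and Rorb had centred changes of 0.25, 0.34 and 0.45. Prdm1, which steers precursors away from bipolar fate, had 95 and 138, a centred change of -0.47. Thrb, the thyroid hormone receptor of cones, had 102 and 136 at the entry used, a centred change of -0.59. Another entry of Thrb had 15, 14, 1 and 10 over the 4 stages, a centred change of 1.46. Rxrg, a nuclear receptor of cones and ganglion cells, was the 1 called lower, with 40 and 29. Mef2c was listed at 0 at PN7 and 2 at PN15 and was not marked.

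Cone genes had a median centred change of 0.00 over 11 symbols, with 4 called higher and 2 lower. Only 5 were marked, of which 1 was higher and 1 lower. Gnat2, cone transducin, had 32, 11, 4 and 24, a centred change of 1.32, and Cnga3 had 24, 17, 9 and 24. The PN15 values of both were at or under those of E17.5. Slc24a2, the cone exchanger, was lower, with 41 and 36. In the photoreceptor ribbon synapse 3 of 14 symbols were higher and 1 lower, with a median of 0.07. Cabp4, a calcium sensor of the terminal, had 6, 15, 9 and 156, Cplx4 had 19, 23, 11 and 101, and the calcium channel Cacna1f had 29, 19, 10 and 73. Ctbp2, which encodes the ribbon protein Ribeye from an internal start, had 154 at PN7 and 96 at PN15 at the entry used, a centred change of -1.68. Cilium and transport genes had a median of 0.46, with 4 of 27 higher and none lower, among them Bbs4 and Mkks. Oxidative phosphorylation genes had a median of 0.37, with 12 of 84 (14.3%) higher, and ribosomal protein genes 0.22, with 4 of 83 (4.82%) higher. Of the 80 marked symbols in each list, 11 (13.8%) and 3 (3.75%) were higher, beside 5.73% of all marked symbols.

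Other symbols with large increases in windows with few repeats lay outside these lists. They were taken, after the values were seen, from the 30 highest with at least 40 at PN15, which also hold list members such as Gnat1 and Pde6a. Not all of the 30 lay in unique sequence. Hist1h2bp and Hist1h2an had 55% and 40% of words repeated within 500 bases of the start. Zfp458, with 47, 30, 3 and 52, had 24% of its window repeated. For 4930525F21Rik, with 56, 9, 0 and 261, it is unknown whether the deposited window had few repeats. The mm9 annotation places its start 137 bases from that of Dtwd1, which had 23 at PN7 and 46 at PN15, so at least 1 of these deposited windows lay elsewhere. Izumo1, known from sperm, had 41, 15, 2 and 200, and Hdgfl1 had 12, 12, 0 and 49. Kcnj14, a potassium channel, had 7, 2, 2 and 115, Aqp1, a water channel, had 16, 10, 5 and 121, and Gpr152 had 7, 13, 8 and 155. The annotated start of Gpr152 lies 175 bases from that of Cabp4, so these genes share most of a window and count as 1 observation. Rabgef1 went from 4 to 85, Sebox from 3 to 56, Mpp4, a photoreceptor scaffold protein, from 15 to 164 and Ktn1 from 3 to 52. Gfap, an intermediate filament of astrocytes and of stressed Müller glia, had 31, 12, 4 and 54. Just inside the limit of 1 stood Cdk5rap2 and Cdh12 with centred changes of exactly 1, and just outside it Qars and Pcna with 0.99. At the lower limit Eno3 and Tm7sf2 had equal deposited values at both stages, 76 and 80, and Ptch1 and Magi1 lay just outside it at -0.99.

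The lowest symbols were regulators of progenitors and early neurons. Among marked symbols with at least 40 at PN7 the largest fall was that of Igf2bp1 (mm9, chr11:95818477-95867254), an RNA-binding protein of embryonic tissue. It had H3K4me2 of 101, 58, 91 and 6, a centred change of -4.72, while its H3K27me3 was 16, 32, 146 and 236. Among the other large falls, Sox21 had 63 and 9, Cacna1h 96 and 24 and Hlx 48 and 12. Hmga2, a chromatin protein of early progenitors, had 135 and 38. Sox2, of the progenitor and glial programmes, had 104, 56, 124 and 36, and Nr2e1 had 118, 82, 125 and 37. The 15 lowest also held Emilin2, Neurod2, Rin3, Wnt16, Gata6, Prdm16 and Fli1, with centred changes between -2.81 and -2.68. In each of the 15 the deposited value itself fell, from 41 or more to 38 or less, so that the fall did not depend on the centring.

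Of 22 progenitor regulators 18 were called lower and none higher, beside 17.1% of all symbols called lower, and their median centred change was -1.64. Against PN1, a comparison with the same PN15 library, the median was -0.54. Before centring, 18 of the progenitor regulators had a lower value at PN15 than at PN7, and 5 were at least 2-fold lower. Pax6, the eye field factor that is kept in amacrine and ganglion cells, had 137, 97, 114 and 44. Notch1 had 81, 63, 128 and 70 and Hes1 had 100, 62, 152 and 85. Dll3, a Notch ligand, had 80, 75, 47 and 15. Pax6 and Ptf1a stand in the amacrine list as well. Rax and Hes6 had centred changes of 0.40 and -0.40. Cell cycle and replication genes did not follow: 4 of 34 were lower, none higher, and the median was -0.14. Pcna had 83, 54, 27 and 110, and Mki67 had 81, 48, 47 and 88. Ccne1, with 53 and 34, and Cdk1, with 49 and 39, were the lowest of that list.

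Amacrine, ganglion and horizontal cell genes were lower as well. Of 18 amacrine genes 16 were called lower (15 of the 16 marked), of 15 ganglion cell genes 9 (8 of the 12 marked) and of 5 horizontal cell genes 4, and none of the 3 lists had a higher symbol. Before centring, 14 amacrine, 8 ganglion and 4 horizontal symbols had a lower value at PN15. At least 2-fold lower before centring were 4, 4 and 1. With a pseudocount of 10 the lower counts after centring were 7, 6 and 4, and 13 of the 22 progenitor regulators were lower. The median centred changes of the 3 lists were -1.42, -1.08 and -1.72, and against PN1 they were -1.02, -1.17 and -0.80. The median H3K27me3 at PN7 was 287 in the amacrine, 290 in the ganglion and 211 in the horizontal list. Of marked symbols with few repeats and H3K27me3 from 200 to under 400 at PN7, 64.2% were called lower. Among marked members of the 3 lists the shares were 93.8%, 66.7% and 80%. Onecut1, of horizontal cells, had 71, 52, 113 and 42. Pou4f2, of ganglion cells, had 64, 43, 62 and 20, and Eomes had 79, 56, 63 and 26. Chat and Slc18a3, of cholinergic amacrine cells, went from 32 to 13 and from 33 to 14. Gad2, a GABA-synthesizing enzyme, went from 92 to 55. The glycine transporter Slc6a9 was an exception, with 72 and 104. Bipolar cell genes had a median of 0.00, with 3 of 17 higher and 3 lower. The 3 higher symbols were not marked, and the 13 marked ones had a median of -0.16. Müller glia genes had 7 of 12 lower and 1 higher. Sox9 had 126 and 48 and Apoe 39 and 27, while Glul, glutamine synthetase, had 94 and 111, a centred change of -0.76. Activity-regulated genes had 10 of 18 lower and a median of -1.06, but 0.43 against PN1. Fos had 165 and 154 and Junb 220 and 218, near equal deposited values, which is what a centred change of -1 describes. The lowest of the list were Nr4a3, with 24 and 10, and Egr3, with 112 and 66 (centred changes of -2.18 and -1.75). Npas4, with 48 and 83, and Nr4a1, with 54 and 99, had centred changes of -0.22 and -0.14 and were not called. A list of genes whose RNA rises with rod maturation, taken from an earlier transcriptome of developing retina, had 20 of 121 symbols (16.5%) higher and 6 (4.96%) lower, all of them marked. The matching list of genes whose RNA falls had 3 of 118 (2.54%) higher and 32 (27.1%) lower. Of all symbols 15.9% were higher and 17.1% lower, and of marked symbols with few repeats 4.49% and 18.8%. The same group drew up both lists, and they are not independent of the design.

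**Figure D4:**
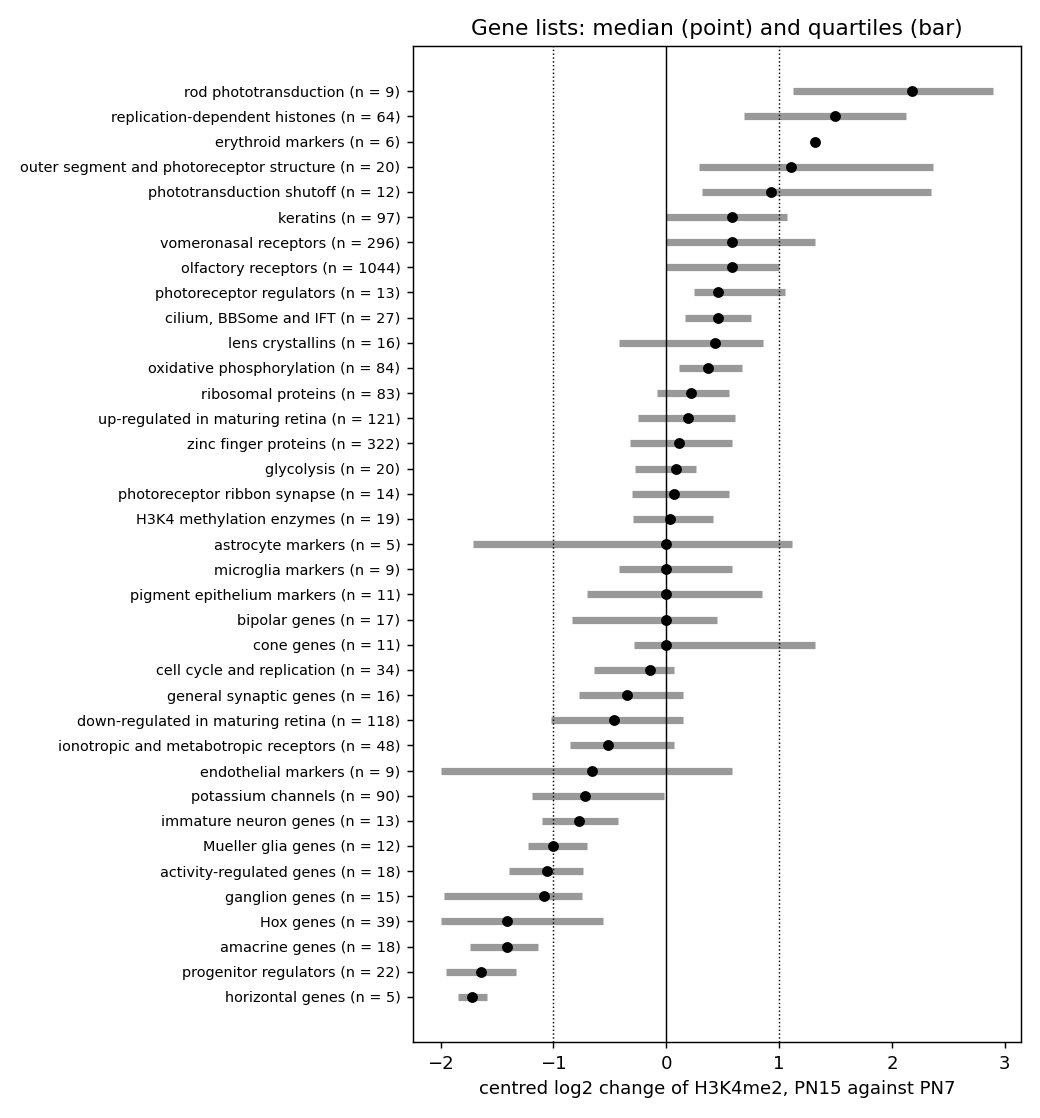
Median (point) and quartiles (bar) of the centred log2 change of H3K4me2 from PN7 to PN15 (x axis) in 37 gene lists (y axis, with the number of measured symbols), 1 library a side. Rod phototransduction is highest at 2.18 and horizontal cell genes are lowest at -1.72; the bars of the olfactory, vomeronasal, keratin and erythroid lists come from values near 0.

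Markers of other cell types in the dissected tissue were near 0 in part. None of 9 microglia symbols was marked, and their summed H3K4me2 was 15 at PN7 and 44 at PN15. Of 9 endothelial symbols 4 were marked, and over the list 4 were called lower and 2 higher. Pecam1 and Tie1 were at 0 or 1 at PN7 and at 0 and 4 at PN15, but Flt1 had 47 and 19, Kdr 55 and 70 and Esam 26 and 43, and the sum over the list was 136 and 148. The pigment epithelium list, with 4 of 11 marked, summed to 134 and 207: Mitf had 49 and 67 and Si 44 and 49, while Rpe65 had 0 and 2. The astrocyte list, with 4 of 5 marked, summed to 51 and 90: Gfap had 4 and 54, Pax2 27 and 11 and Pdgfra 17 and 10. The sums were 37 and 94 over the lens crystallins and 11 and 34 over the erythroid list. Every one of these sums was higher at PN15, as was the median of all symbols, and their part in the results above was not tested.

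Lower H3K4me2 was more frequent in genes that carried more H3K27me3. Among marked symbols with few repeats and H3K27me3 under 10 at PN7, 4.12% of 6408 were called lower and the median centred change was 0.06. The share rose through every class, to 11.8% at 10 to 19, 32.1% at 20 to 49, 51.5% at 50 to 99, 55.7% from 100 to under 200, 64.2% from 200 to under 400 and 78.2% of the 170 symbols at 400 or more, where the median centred change was -1.56. Called-higher symbols ran the other way, from 6.15% in the lowest class to 0 of 170 in the highest. When the classes were set by H3K27me3 at E17.5, from another library, the share called lower went from 6.12% to 69.1%. Symbols with H3K27me3 of at least 50 at PN7 made up 53.6% of those called lower, 17.6% of all and 4.24% of those called higher. Spearman's rho across the 13120 symbols between the centred change and H3K27me3 at PN7 was -0.49. Symbols are not independent replicates, and the PN7 libraries of both marks came from retinas of the same stage.

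**Figure D5:**
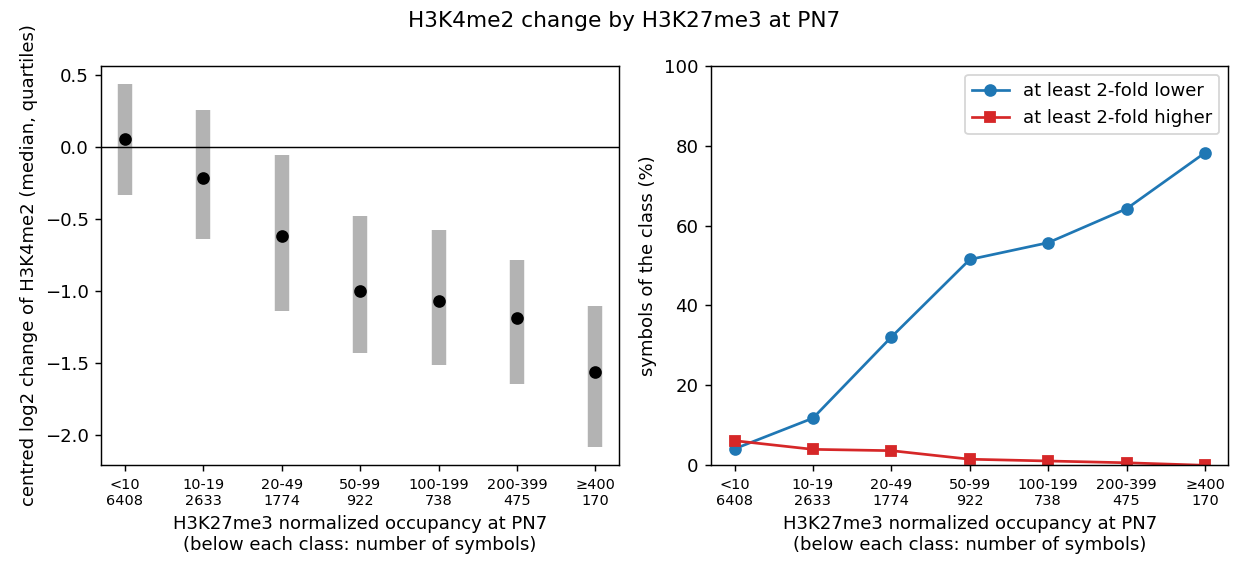
Left, centred log2 change of H3K4me2 from PN7 to PN15 (median and quartiles) by class of H3K27me3 normalized occupancy at PN7, with the number of symbols under each class. Right, the percentage of each class called at least 2-fold lower (blue) or higher (red); the blue line goes from 4.12% to 78.2%.

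The change of H3K27me3 over the same interval was compared next. H3K27me3 was at least 2-fold higher at PN15, relative to its own median, in 6.91% of the 13120 symbols and at least 2-fold lower in 13.3%. Among symbols called lower for H3K4me2 these shares were 5.67% and 15.5%, and among symbols called higher 10.4% and 10.5%. Progenitor regulators and neuron genes differed in this respect. Over the 22 progenitor regulators H3K27me3 had medians of 20, 36, 59 and 85, and it was higher at PN15 than at PN7 in 15. Over 38 amacrine, ganglion and horizontal symbols it was 262.5, 354, 272 and 152, and it was lower at PN15 in 33. A fall of this kind was general at such levels: the 475 marked symbols with H3K27me3 from 200 to under 400 at PN7 had medians of 265 at PN7 and 134 at PN15, and the 922 from 50 to under 100, the class of the progenitor median, had 68 and 49. A total of 140 symbols were lower in H3K4me2 and higher in H3K27me3. Tbx2 had H3K4me2 of 100 and 34 with H3K27me3 of 72 and 164, Cacna1h had H3K27me3 of 39 and 138, Igf2bp3 had H3K4me2 of 104 and 46 with H3K27me3 of 35 and 97, and Tnrc18 had 209 and 94 with 12 and 106. The reverse was found in 62 symbols. Slc24a1 had H3K27me3 of 157 and 40, Guca1a 144 and 58, Abca4, the outer segment retinoid transporter, 105 and 37, and Otx2 130 and 46. These 4 genes carried H3K27me3 of at least 117 at E17.5, whereas Gnat1, Pde6a and Gngt1 were at 43 or less at every stage. The 4 genes named for each pattern were chosen after the values were seen.

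Some genes with several start sites were called higher at 1 of them and not at another. The table holds several entries for 3224 symbols, and 903 had at least 2 differing marked entries. Of the 2020 such entries 11.7% were called higher. In 69 symbols 1 entry was called higher and another was not, and in 9 of these another was called lower. Rgs20, a regulator of G protein signalling, had 86, 32, 108 and 42 at 1 entry and 2, 6, 1 and 60 at the other, with centred changes of -2.34 and 3.93. Rtn4, which encodes Nogo, had 47, 25, 56 and 54 at its main entry and 9, 10, 4 and 83 at another. Kdm4c, a histone demethylase, had 61, 44, 45 and 91 at 1 entry and 7, 8, 2 and 80 at the other. Tnfaip3 had 56, 32, 60 and 110 against 16, 13, 7 and 152. Prkcz, an atypical protein kinase C, had 53 and 47 at 1 entry and 28 and 136 at another, where H3K27me3 went from 219 to 76. In these genes the entry that was called higher was at 28 or less at every earlier stage, and the other was at 25 or more. The symbols were chosen after the values were seen. The deposited entries carry no coordinates, so which start each entry stands for is not given here.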

How the data were processed

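Reads were mapped by the authors to mm9 (Bowtie 0.12.4), those with several positions were dropped, and reads were summed in windows reaching 2.5 kb to either side of a RefSeq TSS, with fragments taken as 190 bp. The deposited scores are such sums, scaled by the authors to the library's mapped reads and given as whole numbers. Read depth per library is therefore unknown here, no counting interval or count model was used, and small values are coarse. The table holds 25152 entries of 20045 symbols in 8 columns. Of 10 samples, 2 (H3K4me2 of rd1 retina at PN30 and the anti-GFP control) have no column and were not analysed here. Spreadsheet dates stand in place of 25 entry names and were left as they are.

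Changes are log2((PN15 + 1)/(PN7 + 1)), less the median of all symbols. A call is a centred change of at least 1 or at most -1. With 1 library a side there was no test. The members and the 37 gene lists were chosen with earlier results of these data known. Named genes were the 15 highest and 15 lowest marked symbols with at least 40 at PN15 or PN7, all members of 3 photoreceptor lists, and the highest and lowest 2 (3 in lists over 40) of the others; not all are printed. Values for other genes are named as examples of their list. Repeated words were counted in mm9 at annotated starts, which can differ from the RefSeq starts used by the authors. Promoters came from RefSeq (GRCm38.p6). The call rule was tested on simulated data. Alternatives were pseudocounts, entry choice, centring, quantile normalization, subtraction of the olfactory receptor median and omission of symbols at 0 at PN7. The omission of repeated windows was added after the values were seen. Python 3.11.15, numpy 2.4.6, pandas 2.3.3, numba 0.67.0 and matplotlib 3.10.9 were used.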

Additional observations from a re-analysis of the deposited data

How the results depend on the processing

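No paired analysis was possible because each mark and stage has 1 library and the labels carry no replicate numbers. For the same reason no replicate could be left out. The median changes of the 7 lists led with kept their direction under every alternative run: 2.08 to 2.56 for rod phototransduction, 0.92 to 1.22 for shutoff, 1.02 to 1.34 for outer segment and structure, -1.64 to -1.07 for progenitor regulators, -1.72 to -1.03 for horizontal, -1.42 to -0.84 for amacrine and -1.33 to -0.56 for ganglion genes. The weakest median changes of the last 4 lists came with a pseudocount of 10 (-1.07, -1.03, -0.84 and -0.56). The counts depended on the settings. Over all symbols (3192 higher, 3433 lower) a pseudocount of 5 gave 1043 and 1351, a pseudocount of 10 gave 1040 and 664, and leaving out symbols at 0 at PN7 gave 1408 and 2077. The higher count was 1560 after centring on a running median by level, and the lower count was 1964 after centring on marked symbols. Over marked symbols (785 higher, 2511 lower) the lower count was 1287 and 661 with pseudocounts of 5 and 10 (978 and 1033 higher) and 1646 with the running median. Quantile normalization gave 1256 and 1621, and subtraction of the olfactory receptor median gave 1269 higher. The median change before centring was 0.49 with a pseudocount of 10 and, by construction, -0.0013 after quantile normalization. The median of the erythroid list, from values near 0, turned to -0.51 without symbols at 0 at PN7. Where not by construction, the cause was not tested. Of 1933 values of named genes under the alternatives, 1703 moved by less than 0.5 and none of a called gene changed sign. The larger moves were concentrated in a few settings. With a pseudocount of 10, 107 named genes moved by 0.5 or more and 90 did not. With a pseudocount of 5, 49 did so, and with the running median 50.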

Other observations

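The X chromosome carried less H3K4me2 than the autosomes. Over 414 marked X-linked symbols with few repeats H3K4me2 had medians of 31, 23, 18 and 36 over the 4 stages, against 57, 39, 36 and 67 over 12705 autosomal symbols, and the median centred changes were -0.12 and -0.22. Medians of single autosomes ran from -0.35 to -0.08. Called-higher symbols made up 8.70% of X-linked and 4.35% of autosomal symbols, and called-lower symbols 18.1% and 18.8%. The part of the lower level in this difference was not tested.

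Of all symbols, 15.9% were called higher and 17.1% lower, and of marked symbols with few repeats 4.49% and 18.8%; the counts of the families that follow are over all measured members. Hox genes, with a median H3K27me3 of 654 at PN7 and 318 at PN15, had 25 of 39 symbols lower and none higher (13 of the 15 marked were lower), from a median H3K4me2 of 6 at PN7 and 5 at PN15. Of marked symbols with few repeats and H3K27me3 of 400 or more at PN7, 78.2% were called lower. Potassium channels had 35 of 90 (38.9%) lower and 7 higher, or 31 and 2 of the 72 marked: Kcna1 went from 76 to 25 and Kcns3 from 48 to 18. Among neurotransmitter receptors 11 of 48 (22.9%) were lower and 3 higher, with Grm8 at 125 and 52, Grik3 at 103 and 42, and the GABA-rho subunit Gabrr2 at 2 and 31. In glycolysis, with a median centred change of 0.09, Aldoc had 11, 10, 13 and 61 and Pgk1 had 65, 34, 18 and 91. Zinc finger proteins had 55 of 322 (17.1%) higher and 18 (5.59%) lower, or 48 and 15 of the 299 marked; Zfp781 and Zfp97, among the 3 highest, were at 0 at PN7 for both marks in repeated windows.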
